A study of Mus musculus with 36 samples.

Results

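The genes described here were measured by chip 430B alone and lay on the same side of the control hearts in every heart examined after induction of a cardiac Akt1 transgene. A gene was taken if its probe set had a single platform symbol that chip 430A lacks, had a mean signal of at least 24.5 over the 18 arrays, and had signals in all 14 hearts of the later groups that lay above the highest control heart or below the lowest. Of 6967 probe sets that could be taken, standing for 4712 genes, 48 lay higher in all 14 hearts (0.689% of those that could) and 25 lay lower (0.359%). Over all 17519 probe sets tested on the chip the shares were 0.502% higher and 0.497% lower. The signals of these same hearts chose the genes, so their differences from control are given as a description with no test, and nothing is read from these counts. Collagen genes and Cilp were left out, which removed 1 probe set from the higher list and 0 from the lower list. All 73 symbols matched a RefSeq gene: 45 of the higher and 21 of the lower genes code for proteins, 3 of each are long noncoding RNAs, and 1 lower gene is a pseudogene.

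RNA came from hearts of mice that carried both a Tet-myrAkt1 and an MHC-tTA transgene, labelled male throughout. The control group held 4 hearts of 12 weeks of age, taken before induction. The on2w group held 4 hearts induced for 2 weeks, aged 14 weeks, and the on2w/off2d group 4 hearts in which 2 days of repression followed, at 14 weeks and 2 days. The on6w group held 3 hearts after 6 weeks of induction, at 18 weeks, and the on6w/off2w group 3 hearts in which 2 weeks of repression followed, at 20 weeks. The MHC promoter drives the tTA activator in heart muscle cells, the controls carried both transgenes as well, and no group here lacked them. Per the series' design text the hearts came from separate mice. Arrays of both chips with the same group and replicate number were taken as the same heart. Age rose from group to group, so induction and age cannot be told apart, and neither can a lower level per cell and fewer cells of a type in RNA of a whole heart.

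Akt1 is a serine/threonine kinase of the insulin and growth factor pathway, and its myristoylated form attaches to the membrane, where it is active. In heart muscle it promotes cell growth, protein synthesis and glucose use and keeps FoxO transcription factors out of the nucleus. Hypertrophy of the heart brings changes in genes of contraction, metabolism and the extracellular matrix.

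An Akt1 probe set of chip 430A had signals of 514, 517, 508 and 652 in the control hearts. They were 1981, 2888, 3481 and 3164 at on2w, 745, 696, 706 and 725 at on2w/off2d, 2931, 2312 and 1851 at on6w, and 789.5, 633 and 837 at on6w/off2w. At this probe set the induced hearts thus stood far above all others, and 6 of the 7 repressed hearts lay above the highest control heart. Another Akt1 probe set of chip 430A showed no such rise, with means of 1044 in control, 878 at on2w and 708 at on6w. On chip 430B those means were 235, 156 and 219 for the brighter Akt1 probe set and 21.9, 23.6 and 18.9 for the dimmer. Control hearts 3 and 4 had Xist signals of 2518 and 2170, against 4.4 to 92.8 in the other 16 hearts, although all were labelled male. Heart 3 of on6w had an Actb ratio, 3' over 5' signal on chip 430B and a sign of RNA quality, of 4.20, against 0.969 to 1.87 in the other 17 hearts. The 5' probe set for 18S rRNA, on the chip that measured the 73 genes, gave 101 to 191 in the control hearts, 108 to 219.9 at on2w, 63.5 to 126 at on2w/off2d, 29.7 to 60.0 at on6w and 32.3 to 48.8 at on6w/off2w. The last 2 groups lay below all control hearts, and the part of this signal in the results was not tested. The 8 cardiomyocyte markers examined were above the lower limit of signal, with a summed level of 276 to 537 times the trimmed mean in the later hearts and 365 to 469.5 in the control hearts. Atrial markers summed to 5.54 to 94.9 in the later hearts and 4.36 to 136 in the control hearts, with control heart 4 highest. Of the 10 marker lists none separated all 14 later hearts from the control hearts. At on6w alone endothelial markers, all 10 measured, summed to 24.6 to 35.1 against 36.8 to 44.6 in the control hearts, and erythroid markers, 3 of 4 measured, to 0.702 to 1.27 against 1.76 to 3.21. The part of any cell type in the results was not tested.

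Higher genes had a median of 0.69 for the mean of their 4 log2 differences from control (0.33 to 1.63), where the median over all probe sets tested was -0.05, and 9 of 48 reached 1. Lower genes had a median of -0.81 (-1.78 to -0.34), and 6 of 25 reached -1. These differences are on the scale of log2(signal + 12.25), which shrinks those of dim probe sets. By group the median of the higher genes was 0.64 at on2w, 0.63 at on2w/off2d, 0.89 at on6w and 0.61 at on6w/off2w, and that of the lower genes was -0.79, -0.63, -0.79 and -0.78 in the same order. The highest signal of 17 of the 48 higher genes was that of heart 3 of on6w, the heart with the Actb ratio of 4.20, and whether that ratio bears on them was not tested.

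**Figure D1:**
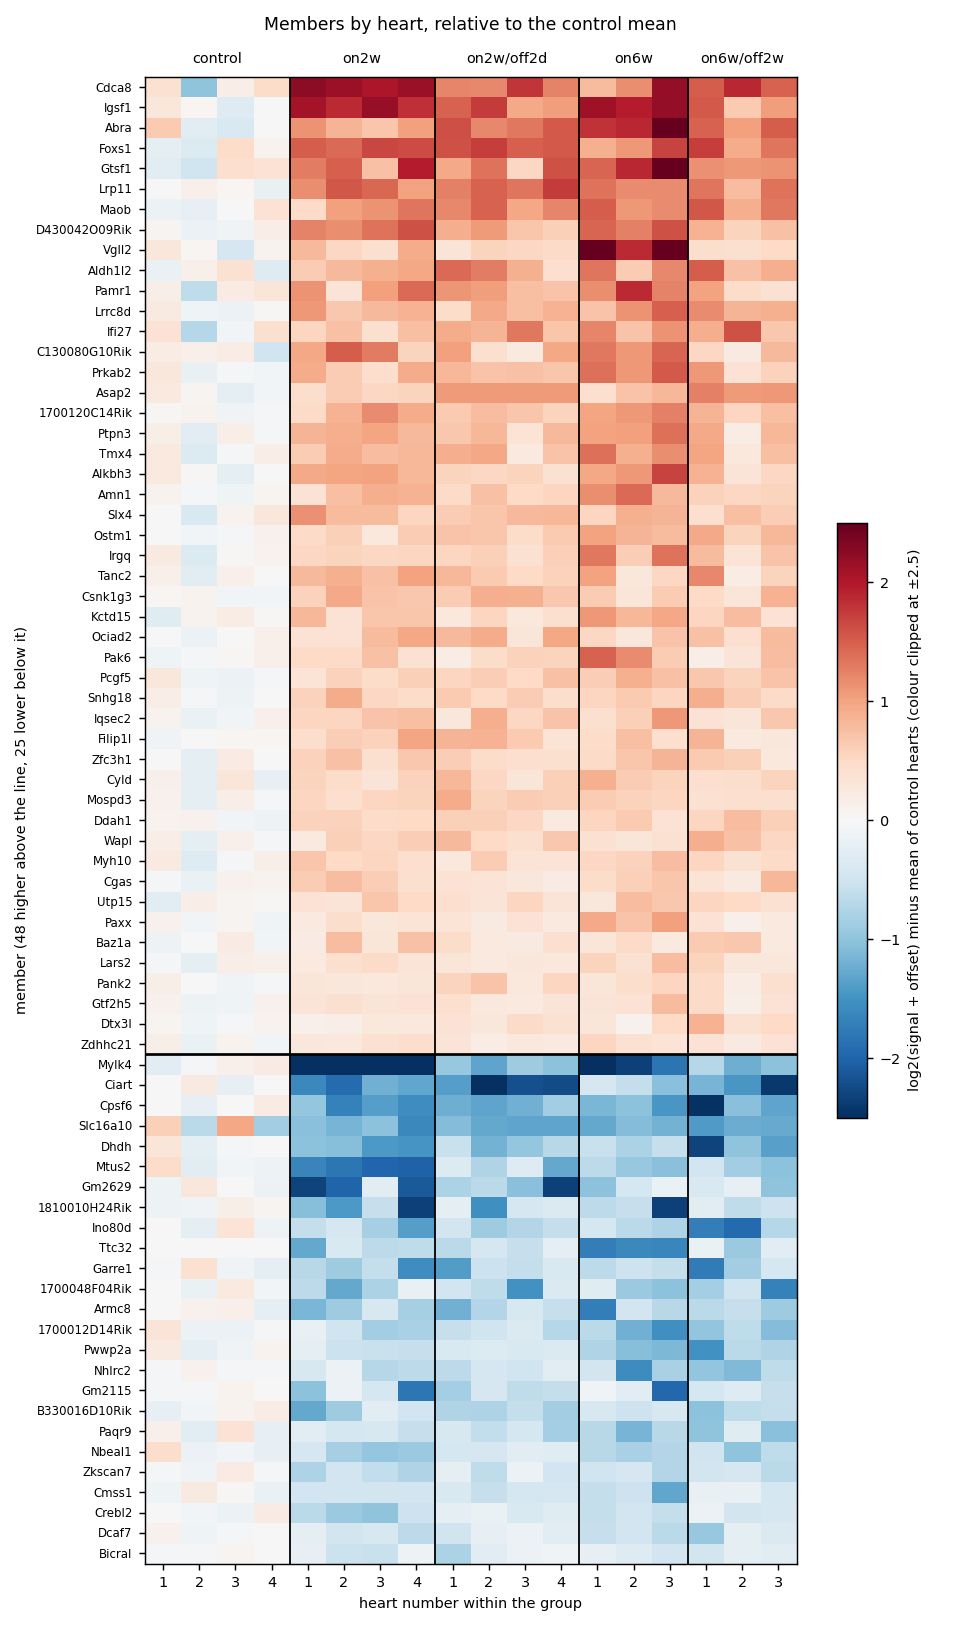
Each row is a gene and each column a heart, with colour giving log2(signal + offset) minus the mean of the control hearts, and groups run from control at the left to on6w/off2w. The 48 higher genes lie above the line and the 25 lower genes below it, ordered by their mean difference (1.63 for Cdca8 at the top); the row of Vgll2 is darkest at on6w, and that of Mylk4 is darkest at on2w and on6w.

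Promoter sequences, from 250 bases before to 50 after each start in RefSeq's annotation of GRCm38.p6, were at hand for 52 of the 73 genes as 67 windows. Each shown here holds, in capitals, a motif that background knowledge ties to the gene's own pathway: the E-box CACGTG that CLOCK and BMAL1 bind for the clock repressor Ciart, the cell cycle homology region TTTGAA for borealin, and the CArG box that serum response factor binds for the cytoskeletal gene Filip1l. The windows lie at chr3:95882179-95882478 (minus strand) for Ciart, chr4:124936868-124937167 (minus strand) for Cdca8 and chr16:57548992-57549291 (plus strand) for the second start listed for Filip1l, in GRCm38.p6.
Ciart: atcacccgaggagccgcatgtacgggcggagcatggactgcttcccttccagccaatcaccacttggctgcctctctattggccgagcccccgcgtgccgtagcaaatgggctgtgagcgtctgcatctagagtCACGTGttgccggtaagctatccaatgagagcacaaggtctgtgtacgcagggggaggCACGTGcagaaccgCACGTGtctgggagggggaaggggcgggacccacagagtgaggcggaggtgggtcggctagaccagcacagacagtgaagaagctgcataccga
Cdca8: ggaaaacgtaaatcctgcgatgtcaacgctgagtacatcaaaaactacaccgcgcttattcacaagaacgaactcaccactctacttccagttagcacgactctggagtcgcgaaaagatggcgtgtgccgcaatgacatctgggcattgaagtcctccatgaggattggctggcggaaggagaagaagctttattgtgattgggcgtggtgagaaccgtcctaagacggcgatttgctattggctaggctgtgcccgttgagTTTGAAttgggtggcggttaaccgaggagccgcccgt
Filip1l: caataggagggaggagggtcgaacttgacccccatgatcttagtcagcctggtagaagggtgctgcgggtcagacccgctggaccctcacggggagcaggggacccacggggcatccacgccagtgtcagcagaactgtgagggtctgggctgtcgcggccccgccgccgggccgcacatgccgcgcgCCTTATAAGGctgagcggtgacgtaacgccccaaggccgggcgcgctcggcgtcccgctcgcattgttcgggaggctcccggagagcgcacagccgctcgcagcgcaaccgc
Ciart held 3 E-boxes, at -116, -58 and -44 from its start, Cdca8 held TTTGAA at 13, and the Filip1l window held a CArG box at -62. The window of the first start listed for Filip1l, chr16:57353027-57353326, held 0 CArG boxes and is not shown.

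Both strands were searched in all 32851 windows of this length. The E-box was in 5 of 52 windows of the higher genes and 1 of 15 of the lower genes, with 7.15% of all windows. TTTGAA was in 4 and 3, with 17.9% of all. The CArG box was in 3 windows of the higher genes (Filip1l, Kctd15 and Prkab2) and 0 of the lower genes, with 1.63% of all. CCAAT was in 19 and 7, with 37.4% of all, the FoxO motif GTAAACA in 2 and 0, with 3.65% of all, and the interferon response element in 0 and 0, with 3.44% of all. Matches of different motifs can overlap, and a match describes letters in the window and nothing more.

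The higher genes with the largest differences encode several kinds of protein. Cdca8 encodes borealin, a subunit of the chromosomal passenger complex that directs chromosome segregation and cell division. Cdca8 signals were 76.5, 21.9, 64.5 and 81.4 in the control hearts, 309.7, 289, 265 and 292 at on2w, 147, 146, 223 and 149 at on2w/off2d, 106, 141 and 300.5 at on6w, and 182, 239 and 179 at on6w/off2w. The on2w hearts were highest and lay apart from the rest except heart 3 of on6w, and the log2 difference from control was 2.14 ± 0.29 (SE) at on2w and 1.62 ± 0.32 (SE) at on6w/off2w. Igsf1, a membrane glycoprotein of the immunoglobulin superfamily known from the pituitary, was near its highest in all 7 induced hearts. Igsf1 signals were 395, 334, 253 and 317 in the control hearts, 1400, 1196, 1504 and 1171 at on2w, 914, 1103, 627 and 677 at on2w/off2d, 1432, 1288 and 1518 at on6w, and 951, 512 and 671 at on6w/off2w. The lowest induced heart (1171) lay above the highest repressed heart (1103), and all of these lay above the control hearts. Abra binds actin and promotes transcription by serum response factor in striated muscle. Abra signals were 322, 164, 149.6 and 197 in the control hearts, 450, 367, 328 and 416 at on2w, 629.9, 474, 517 and 603 at on2w/off2d, 728, 767 and 1367 at on6w, and 572, 419.9 and 589 at on6w/off2w. Heart 3 of on6w had the highest signal, and the 7 repressed hearts lay between 419.9 and 629.9. Foxs1, a forkhead transcription factor known from neural crest derivatives and perivascular cells, had 122 to 229.6 in the 14 later hearts and 45.3 to 88.0 in the control hearts. Gtsf1, known for silencing of transposons in germ cells, had 96.3 to 539.6 in the later hearts against 41.4 to 88.8 in the control hearts, and its probe set is of a kind that can bind other transcripts. Lrp11, a membrane protein of the low-density lipoprotein receptor family, had 168 to 338 in the later hearts against 79.8 to 102 in the control hearts.

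Maob is a monoamine oxidase of the mitochondrial outer membrane. Maob signals were 747, 713, 823 and 1073 in the control hearts, 1160, 1699, 1809 and 2108 at on2w, 1923, 2327, 1630 and 1945 at on2w/off2d, 2395, 1772 and 1889 at on6w, and 2452, 1557 and 2075 at on6w/off2w. The lowest later heart was heart 1 of on2w, close to control heart 4, and the other 13 lay at 1557 or more. D430042O09Rik had 256 to 539.8 in the later hearts against 152 to 192 in the control hearts. Vgll2, a cofactor of TEAD transcription factors known from skeletal muscle, was far above the rest at on6w. Vgll2 signals were 238, 202, 143 and 206 in the control hearts, 352, 283, 260.3 and 380.2 at on2w, 244, 292, 282 and 275 at on2w/off2d, 1399, 739 and 2008 at on6w, and 266, 259.8 and 278 at on6w/off2w. Its 3 on6w hearts stood alone, and the other 11 later hearts were at 244 to 380.2, close above the highest control heart at 238.

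**Figure D2:**
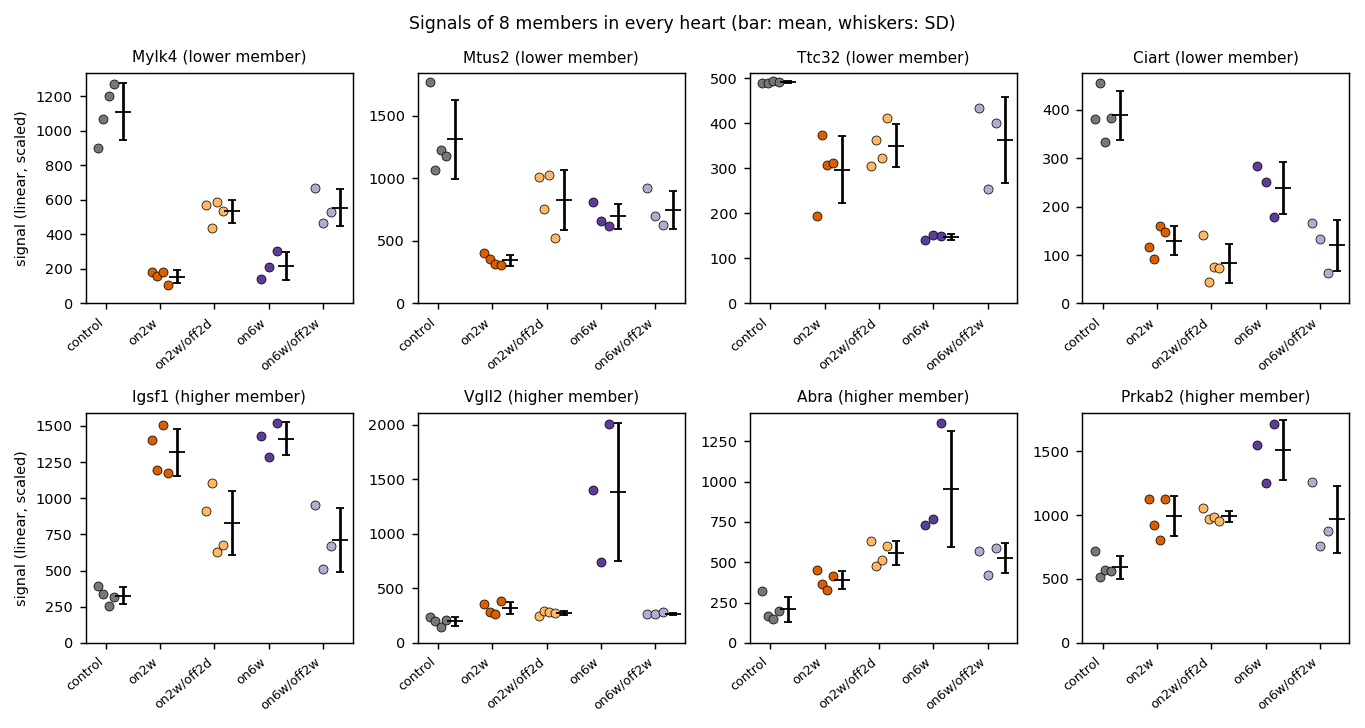
Points are hearts and bars with whiskers are means with SD, on a linear scale of signal that starts at 0, with groups from control to on6w/off2w along the axis. Mylk4 was at 105 to 302 in the 7 induced hearts, at 436 to 671 in the 7 repressed hearts and at 901 to 1271 in the control hearts, and Vgll2 was at 739 to 2008 at on6w alone.

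The remaining higher genes are given by their known roles, an order of description and not a tested grouping. Several act on chromosomes, DNA or RNA. Wapl, which releases cohesin from chromosomes, had 356 to 567 in the later hearts against 249.5 to 333 in the control hearts. Slx4, a scaffold for nucleases that resolve DNA junctions, had 278 to 465 in the later hearts against 154 to 252 in the control hearts. Paxx, a factor of nonhomologous end joining, had 323 to 617 in the later hearts against 275 to 319.7 in the control hearts. Alkbh3, a demethylase that repairs alkylated DNA and RNA, had 1244 to 3223 in the later hearts against 831 to 1175 in the control hearts. Gtf2h5, the smallest subunit of the repair and transcription factor TFIIH, had 1364 to 2141 in the later hearts against 1125 to 1325 in the control hearts. These 5 genes of chromosomes and repair differed from control by ratios of mean signals of 1.29 to 1.80. Baz1a, a chromatin remodelling subunit, had 242 to 364 in the later hearts against 190.2 to 241 in the control hearts. Pcgf5, a Polycomb RING finger protein, had 1595 to 2316 in the later hearts against 1129 to 1531 in the control hearts. Zfc3h1, which takes polyadenylated RNA to the nuclear exosome, had 386 to 588 in the later hearts against 271 to 367 in the control hearts. Utp15, a ribosome biogenesis factor of the nucleolus, had 352 to 495 in the later hearts against 237 to 321 in the control hearts. Outside that group, Kctd15, a BTB domain protein known from neural crest formation, had 223 to 401 in the later hearts against 146 to 212 in the control hearts. Amn1 had 308 to 649.6 in the later hearts against 217 to 249.7 in the control hearts and Csnk1g3, a casein kinase 1 isoform, had 195 to 312 in the later hearts against 148 to 168 in the control hearts.

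Other genes are known from innate defence or the ubiquitin system. Cgas, the sensor of cytosolic DNA that makes cyclic GMP-AMP, had 189.6 to 301 in the later hearts against 144 to 177 in the control hearts. Ifi27, an interferon-induced protein, had 826 to 1904 in the later hearts against 376 to 823 in the control hearts, and its lowest later heart lay 0.0043 log2 units above the highest control heart. Dtx3l, a ubiquitin ligase that acts with Parp9, had 363 to 622 in the later hearts against 312 to 360.1 in the control hearts. Cyld, a deubiquitinase that restrains NF-kappaB signalling, had 337 to 509.6 in the later hearts against 231 to 336 in the control hearts, and Irgq, a member of the immunity-related GTPase family, had 382 to 788 in the later hearts against 234 to 351 in the control hearts. Apart from Ifi27, whose ratio of mean signals was 1.83, their ratios lay between 1.30 and 1.64.

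Further genes are known from the cytoskeleton or from signalling at the membrane. Myh10, the heavy chain of nonmuscle myosin IIB, had 789.9 to 1130 in the later hearts against 524 to 769 in the control hearts. Filip1l, a filamin A interacting protein, had 373 to 629 in the later hearts against 293 to 327 in the control hearts. It is 1 of the 3 higher genes with a CArG box, which the window of its first listed start lacks. Pak6, a p21-activated kinase, had 281 to 715 in the later hearts against 230 to 273 in the control hearts, and Tanc2, a scaffold protein of synapses, had 117 to 250 in the later hearts against 82.2 to 112 in the control hearts. Asap2, an Arf GTPase activating protein, had 343 to 622 in the later hearts against 213 to 305 in the control hearts. Iqsec2, an exchange factor for Arf6, had 862 to 1514 in the later hearts against 636 to 779 in the control hearts, and Ptpn3, a tyrosine phosphatase with a FERM domain, had 613 to 1419 in the later hearts against 440.2 to 603 in the control hearts.

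Metabolic enzymes included Prkab2, the beta 2 subunit of the energy sensor AMPK. Prkab2 signals were 722, 518, 572 and 559 in the control hearts, 1125, 920.3, 804 and 1126 at on2w, 1054, 968, 987 and 954 at on2w/off2d, 1550, 1254 and 1717 at on6w, and 1262, 759 and 877 at on6w/off2w. The on6w hearts were highest but for heart 1 of on6w/off2w, which lay within their range, and the log2 difference at on6w was 1.33 ± 0.17 (SE). Aldh1l2, the mitochondrial 10-formyltetrahydrofolate dehydrogenase of folate metabolism, had 251 to 553 in the later hearts against 144 to 244 in the control hearts, with a log2 difference of 1.06 ± 0.24 (SE) at on6w/off2w. Ddah1, which degrades asymmetric dimethylarginine, an inhibitor of nitric oxide synthase, had 253 to 369.9 in the later hearts against 192 to 227 in the control hearts. Pank2, a pantothenate kinase of coenzyme A synthesis, had 396 to 580.1 in the later hearts against 326 to 388 in the control hearts, and Lars2, the mitochondrial leucyl-tRNA synthetase, had 677 to 977 in the later hearts against 478 to 643 in the control hearts. Ociad2 had 644 to 1042 in the later hearts against 477 to 574 in the control hearts.

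Among the remaining membrane and secreted proteins, Pamr1, a secreted protein with a peptidase domain linked to muscle regeneration, had 113 to 349 in the later hearts against 51.5 to 109.8 in the control hearts. Lrrc8d, a subunit of volume-regulated anion channels, had 136 to 292 in the later hearts against 85.0 to 114 in the control hearts. Ostm1, the partner of the lysosomal chloride transporter Clcn7, had 855 to 1439 in the later hearts against 680.3 to 761 in the control hearts. Tmx4, a thioredoxin-like protein of the endoplasmic reticulum, had 1949 to 4278 in the later hearts against 1289 to 1925 in the control hearts. Zdhhc21, a palmitoyltransferase, had the smallest difference of the higher genes, a mean of 0.33, with 393 to 502 in the later hearts against 305 to 377 in the control hearts. Mospd3 had 298 to 441 in the later hearts against 188 to 255 in the control hearts. The 3 noncoding RNAs were Snhg18, a small nucleolar RNA host gene, with 327 to 466 in the later hearts against 219 to 269 in the control hearts, 1700120C14Rik with 1106 to 1925 in the later hearts against 746 to 842 in the control hearts and C130080G10Rik with 347 to 867 in the later hearts against 205 to 341 in the control hearts.

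The lower genes were led by Mylk4, a kinase of the myosin light chain kinase family. Mylk4 signals were 901, 1071, 1203 and 1271 in the control hearts, 182, 157, 181 and 105 at on2w, 569, 436, 588 and 537 at on2w/off2d, 139, 210.1 and 302 at on6w, and 671, 463 and 532 at on6w/off2w. All 7 repressed hearts lay between the 7 induced hearts and the control hearts, with no overlap on either side, and the log2 difference from control was -2.75 ± 0.20 (SE) at on2w and -0.99 ± 0.22 (SE) at on6w/off2w. Ciart, a transcriptional repressor of the circadian clock that opposes CLOCK and BMAL1 and whose promoter window with 3 E-boxes is shown above, showed another order. Ciart signals were 381, 455, 334 and 383 in the control hearts, 117, 92.8, 161 and 149 at on2w, 141, 45.2, 74.5 and 72.5 at on2w/off2d, 285, 252 and 179.6 at on6w, and 165, 133 and 62.4 at on6w/off2w. The on6w hearts were nearest to control, and the lowest hearts were repressed ones. The sources used here do not give the hour at which the hearts were taken, so its part in the Ciart signal was not tested. Mtus2, a microtubule plus-end binding protein, was lowest at on2w. Mtus2 signals were 1768, 1065, 1230 and 1183 in the control hearts, 401, 359, 317 and 307 at on2w, 1013, 759, 1028 and 522 at on2w/off2d, 812, 659 and 617 at on6w, and 922, 703 and 629 at on6w/off2w. The 4 on2w hearts lay below all others, and control heart 1 was the highest. Ttc32, a protein of tetratricopeptide repeats, was at 489 to 493 in all 4 control hearts. Ttc32 signals were 489, 490, 493 and 491 in the control hearts, 194, 373, 308 and 312 at on2w, 304, 363, 323 and 412 at on2w/off2d, 139.9, 153 and 149.8 at on6w, and 434, 253 and 401 at on6w/off2w. The 3 on6w hearts lay below all others.

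Cpsf6, a subunit of cleavage factor I that selects polyadenylation sites, had 24.9 to 101 in the later hearts against 166 to 226 in the control hearts. Dhdh, a dihydrodiol dehydrogenase, had 61.6 to 239 in the later hearts against 301 to 441 in the control hearts. Slc16a10, a transporter of aromatic amino acids, had 9.11 to 19.9 in the later hearts against 23.2 to 114 in the control hearts: all 14 later hearts were under the limit of 24.5 set on the mean signal, and the control hearts differed among themselves by more than a factor of 4, so its size is uncertain. The dim pseudogene Gm2629 had 4.38 to 62.2 in the later hearts against 63.6 to 89.2 in the control hearts. Ino80d, a subunit of the INO80 chromatin remodeller, had 52.2 to 173 in the later hearts against 198 to 301 in the control hearts. Garre1, an effector of Rac, had 83.8 to 239 in the later hearts against 264 to 408 in the control hearts. Armc8, a subunit of the CTLH ubiquitin ligase, had 5.51 to 32.8 in the later hearts against 38.5 to 52.5 in the control hearts. Nhlrc2, a protein of NHL repeats, had 108 to 312 in the later hearts against 334 to 372 in the control hearts.

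Further lower genes were Pwwp2a, a reader of chromatin with histone H2A.Z, with 90.6 to 238 in the later hearts against 239 to 332 in the control hearts, and Bicral, a subunit of a BAF chromatin remodeller, with 283 to 466 in the later hearts against 484 to 525 in the control hearts. Nbeal1, a BEACH domain protein, had 505 to 841 in the later hearts against 879 to 1391 in the control hearts. Crebl2, a bZIP protein related to CREB, had 102 to 195 in the later hearts against 196 to 253 in the control hearts. Dcaf7, a WD40 adaptor protein, had 110.3 to 202 in the later hearts against 206 to 243 in the control hearts. Paqr9, of the progestin and adipoQ receptor family, had 179 to 337 in the later hearts against 340.3 to 535 in the control hearts. Zkscan7, a zinc finger protein, had 58.0 to 95.8 in the later hearts against 99.3 to 125 in the control hearts, and Cmss1 had 92.4 to 214 in the later hearts against 217 to 289 in the control hearts. The noncoding RNAs were 1700012D14Rik with 61.0 to 173 in the later hearts against 179 to 254 in the control hearts, 1700048F04Rik with 29.5 to 106 in the later hearts against 108 to 146 in the control hearts and B330016D10Rik with 36.2 to 84.8 in the later hearts against 89.7 to 122 in the control hearts. The other 2 lower genes were 1810010H24Rik and Gm2115. The dim 1810010H24Rik, with a mean signal of 42.0, had 3.80 to 56.8 in the later hearts against 61.1 to 76.8 in the control hearts. Gm2115 had 16.3 to 92.8 in the later hearts against 96.8 to 108 in the control hearts.

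The contrasts between later groups were not themselves used to choose the genes, but the rule used the signals of these same hearts. A gene with any later heart in the control range could not be taken, which limits the contrasts that the 73 genes can show. The shares over all probe sets carry no such limit. The contrasts were tested with limma over all 17519 probe sets of the chip, with a probe set called at a Benjamini-Hochberg adjusted p under 0.05. After 2 days of repression Mylk4, Mtus2 and Asap2 were higher than at on2w. These were 1 of 48 higher genes and 2 of 25 lower genes, where 1.57% of all probe sets tested were called higher. No gene of the 73 was called lower, where 0.782% of all were. In that direction 6 had an unadjusted p under 0.05, a cutoff at which the share of all probe sets was not counted. Mylk4 averaged 533 ± 67.7 at on2w/off2d and 156 ± 36.1 at on2w (SD, n = 4 each), a log2 difference of 1.71 ± 0.20 (SE, adjusted p = 7.31e-05). Mtus2 averaged 830.5 ± 240.2 at on2w/off2d against 346 ± 43.1 at on2w (SD, n = 4 each), a log2 difference of 1.19 ± 0.20 (SE, adjusted p = 0.00220). Both were lower genes that moved towards control, and every repressed heart lay above every on2w heart. Asap2, a higher gene, moved further from control instead, with 547 ± 2.08 at on2w/off2d against 377 ± 22.5 at on2w (SD, n = 4 each), a log2 difference of 0.52 ± 0.13 (SE, adjusted p = 0.0289). Its 4 repressed hearts lay between 545 and 549. The Asap2 call was lost without any of hearts 1, 3 and 4 of on2w or any of the 4 hearts of on2w/off2d, with adjusted p of 0.0211 to 0.0808 over 27 alternative analyses, where those of Mylk4 and Mtus2 were kept in all 27.

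Between 2 and 6 weeks of induction Vgll2, Abra and Paxx went further from control. Of the 48 higher genes 3 were called higher at on6w, and of the 25 lower genes 1 was called higher and 1 lower, with 0.776% of all probe sets tested called higher and 1.03% lower. Vgll2 averaged 1382 ± 635 at on6w (SD, n = 3) and 319 ± 56.5 at on2w (SD, n = 4), a log2 difference of 1.98 ± 0.24 (SE, adjusted p = 0.000508). Abra averaged 954 ± 358 at on6w and 390.3 ± 53.6 at on2w, a log2 difference of 1.21 ± 0.23 (SE, adjusted p = 0.0118). Both calls were kept in all 27 alternatives, and every on6w heart lay above every on2w heart. Paxx had 563 ± 65.7 at on6w and 376 ± 23.4 at on2w, a log2 difference of 0.56 ± 0.12 (SE, adjusted p = 0.0235), lost without hearts 1, 3 or 4 of on2w or hearts 1 or 3 of on6w (0.0189 to 0.0920). Mtus2, a lower gene, came nearer to control with 696 ± 103 at on6w and 346 ± 43.1 at on2w, a log2 difference of 0.98 ± 0.21 (SE, adjusted p = 0.0228). Ttc32, another lower gene, went further away, with 148 ± 6.77 at on6w and 297 ± 74.4 at on2w, a log2 difference of -0.92 ± 0.19 (SE, adjusted p = 0.0202). The Mtus2 call was lost without hearts 2, 3 or 4 of on2w or hearts 1 or 2 of on6w (adjusted p 0.0118 to 0.111). The Ttc32 call was lost without hearts 2, 3 or 4 of on2w or heart 1 of on6w and with arrays scaled to a common median (adjusted p 0.00389 to 0.0776). Age differed by 4 weeks between these groups.

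After 2 weeks of repression that followed 6 weeks of induction, 5 of the 48 higher genes were lower than at on6w, where 1.46% of all probe sets were called lower, and 2 of the 25 lower genes were higher, where 2.15% of all were called higher. All 7 moved towards control. Vgll2 averaged 268 ± 9.26 at on6w/off2w against 1382 ± 635 at on6w (SD, n = 3 each), a log2 difference of -2.20 ± 0.25 (SE, adjusted p = 4.82e-05). Igsf1 averaged 712 ± 222 at on6w/off2w against 1413 ± 116 at on6w (SD, n = 3 each), a log2 difference of -1.02 ± 0.22 (SE, adjusted p = 0.0121). Paxx averaged 353 ± 29.6 at on6w/off2w against 563 ± 65.7 at on6w (SD, n = 3 each), a log2 difference of -0.65 ± 0.13 (SE, adjusted p = 0.00745). In these 3 genes every repressed heart lay below every on6w heart. D430042O09Rik had a log2 difference of -0.72 ± 0.16 (SE, adjusted p = 0.0174) and Alkbh3 of -0.67 ± 0.18 (SE, adjusted p = 0.0417). Among the lower genes Mylk4 averaged 556 ± 106 at on6w/off2w against 217 ± 81.9 at on6w (SD, n = 3 each), a log2 difference of 1.36 ± 0.24 (SE, adjusted p = 0.00288). Ttc32 averaged 363 ± 96.3 at on6w/off2w against 148 ± 6.77 at on6w (SD, n = 3 each), a log2 difference of 1.20 ± 0.21 (SE, adjusted p = 0.00277). The calls of Vgll2, Mylk4 and Ttc32 were kept in all 27 alternatives. With the Actb ratio as a covariate the calls of Paxx, Igsf1, D430042O09Rik and Alkbh3 were lost, with log2 differences of -0.56 for Paxx, -0.90 for Igsf1, -0.60 for D430042O09Rik and -0.41 for Alkbh3. Igsf1 and D430042O09Rik were also lost without heart 2 of on6w/off2w, and D430042O09Rik without heart 3 of on6w (adjusted p 0.00473 to 0.0692 for Paxx, 0.00443 to 0.0959 for Igsf1 and 0.0134 to 0.137 for D430042O09Rik). Alkbh3 was kept in 11 of 27, and among single hearts it was lost without control heart 4, hearts 2 to 4 of on2w, any heart of on2w/off2d, heart 3 of on6w, or hearts 2 or 3 of on6w/off2w (adjusted p 0.0207 to 0.343).

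**Figure D3:**
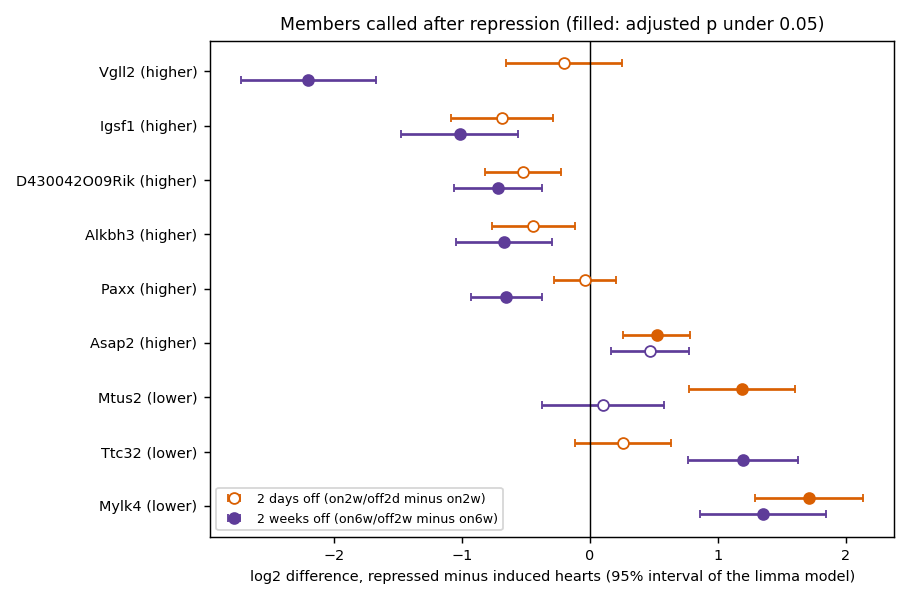
Points are log2 differences of repressed minus induced hearts with 95% intervals of the limma model, orange for 2 days off and purple for 2 weeks off, filled where the adjusted p was under 0.05. Mylk4 was higher after both repressions (1.71 and 1.36), and Vgll2 was lower after 2 weeks off (-2.20) with an interval that spans 0 after 2 days off.

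The responses to the 2 repressions were compared by an interaction term, the difference after 6 weeks of induction minus that after 2 weeks. Vgll2 alone of the 73 genes was called, with a value of -2.00 ± 0.33 (SE, adjusted p = 0.0283), where 0.0342% of all probe sets were called higher and 0.0571% lower. That call was lost with a replicate block and without hearts 2 or 3 of on2w, any heart of on2w/off2d, heart 1 of on6w or heart 2 of on6w/off2w (adjusted p 0.000510 to 0.0993 over 27 alternatives). The durations of induction and of repression and the ages all differ between the 2 responses and cannot be told apart. For Mylk4 the interaction was -0.36 with a 95% interval of -1.01 to 0.29, and it did not pass. Between the repressed groups, on6w/off2w against on2w/off2d, limma called 0 of the 73 genes, with 0% of all probe sets called higher and 0% lower. At an unadjusted p under 0.05 there were 0 of the 48 higher genes in either direction and, of the 25 lower genes, 4 lower and 0 higher. The share of all probe sets at that unadjusted cutoff was not counted, so nothing is read from these counts.

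The share of the induced difference still present after repression was taken from the fitted log2 differences from control. For the higher genes its median was 89.6% after 2 days (48.8% to 196%) and 75.4% after 2 weeks (16.7% to 198%). For the lower genes it was 78.4% after 2 days (34.6% to 142%) and 94.1% after 2 weeks (27.8% to 243%). Genes that returned into the control range could not be taken, so these shares describe genes chosen for staying away from control, and both terms of a share use the same control hearts. After 2 weeks the smallest shares were those of Vgll2 among the higher genes (16.7%) and of Ttc32 among the lower genes (27.8%). Mylk4 kept 37.8% after 2 days and 42.2% after 2 weeks. Ciart went the other way, with 142% and 243%. Its log2 difference between on6w/off2w and on6w was -0.99, with a 95% interval of -1.66 to -0.32 and an adjusted p of 0.102, which did not pass.

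Other probe sets of these genes on chip 430B come from the same hearts and were put to the same rule without meeting it, so they are a description and no independent measure. For the higher genes 46 such probe sets of 32 genes passed the limit on signal. Of the 46, 32 differed from control in the same direction as the chosen one and 14, of 11 genes, in the other, and the median over all 46 was 0.20. For the lower genes 32 probe sets of 16 genes passed it. Of the 32, 18 had the same direction and 14, of 11 genes, the other, and the median over all 32 was -0.03. Brighter than the chosen probe set were 7 of the 46 for the higher genes and 18 of the 32 for the lower genes.

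The 2 others of Prkab2 had mean log2 differences of 1.02 and 0.87, against 0.87 for the chosen one. Others were at 1.29 for Cdca8, 0.82 for Ifi27, 0.95 for Cgas, 0.66 for Igsf1, 0.62 for Gtsf1, 0.63 for Lrrc8d and 0.60 for Ociad2. Ddah1 had 0.71 and 1.26 in its 2 furthest and 0.22 and 0.0046 in the other two. In the other direction were the single further probe sets of Paxx (-0.24), Alkbh3 (-0.18), Irgq (-0.23), Utp15 (-0.23), Dtx3l (-0.09) and Zdhhc21 (-0.04). So were both of Pcgf5 (-0.19 and -0.17) and both of Pank2 (-0.20 and -0.0052), and 1 of those of Cyld (-0.33) and of Lars2 (-0.28). Wapl had -0.17 and -0.09 in that direction, and 0.51 and 0.35 in the direction of its chosen probe set. Among the lower genes the furthest in the same direction were those of Nbeal1 (-0.55), Crebl2 (-0.54), Gm2115 (-0.51), Bicral (-0.37), Cpsf6 (-0.37) and Mtus2 (-0.35). That of Cpsf6 was dim, with a mean signal of 26.9. Brighter ones of Cpsf6, with mean signals of 548, 232 and 171 against 99.9 for the chosen one, were at -0.19, -0.02 and 0.07. The furthest in the other direction were those of Dcaf7 (0.67 and 0.24), Slc16a10 (0.46), Bicral (0.33) and Ino80d (0.29), so Bicral had one each way. Mtus2 had both directions as well, -0.35 at a mean signal of 884 and 0.12 at 355.5. Its chosen probe set had -1.05 at 794. All 3 of Armc8 were in the other direction (0.06 to 0.14), and their mean signals were 350 to 715 against 28.0 for the chosen one. Probe sets of a gene can bind different transcripts or different ends of a transcript, which was not tested here. Mylk4, Ciart, Vgll2 and Abra had no other probe set on the chip.

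**Figure D4:**
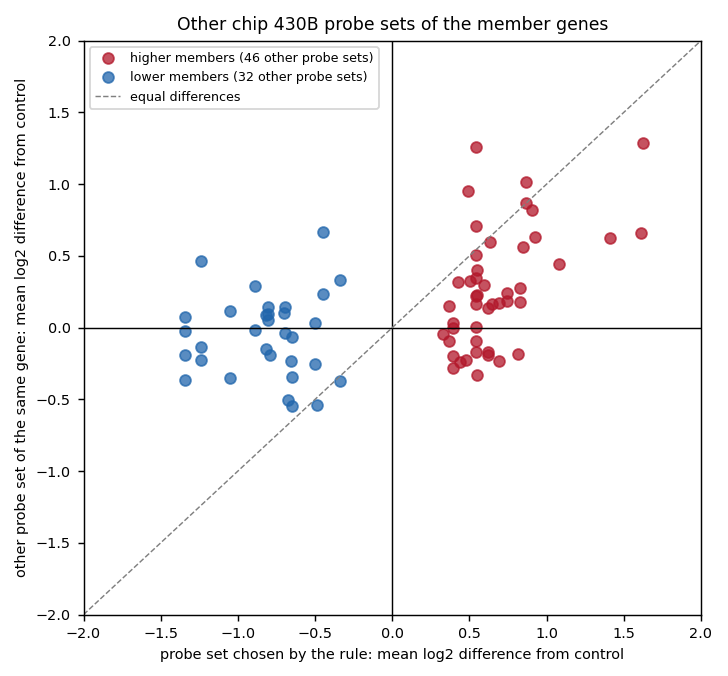
Each point is another chip 430B probe set that passed the limit on signal, with the mean log2 difference from control of the probe set chosen by the rule along the axis and its own difference upwards. Red points are higher genes (46) and blue points lower genes (32), and the dashed line marks equal differences; 32 red points lie above 0 and 18 blue points below 0.

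Many of the genes lay close to the threshold of the rule. The gap between the nearest later heart and the nearest control heart was under 0.1 log2 units for 25 of 48 higher and 15 of 25 lower genes. Just inside it among the higher genes were Cyld, with a lowest later heart of 337 against a highest control heart of 336, Baz1a (242 against 241) and Ifi27 (826 against 823). Just outside were Nudt18, Fam219a and Zbtb41, at 475.9 against 476.0, 297.8 against 298.0 and 276.5 against 277.1. Among the lower genes Pwwp2a, Crebl2 and Paqr9 were just inside, with a highest later heart of 238.0 against a lowest control heart of 238.9, 195.2 against 196.2, and 336.8 against 340.3. Lin52 (131 against 129.8), Slc25a27 (345 against 339) and Gm1673 (51.8 against 50.6) were just outside. Control heart 1 set the limit for 19 of the 48 higher genes and control heart 3 for 13. Control heart 2 set it for 10 of the 25 lower genes.

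The lists also depended on the scaling of the arrays. Under a common median for all arrays 63 probe sets lay higher and 8 lower, of which 33 and 8 are among the 48 and 25. Quantile normalization gave 46 higher and 29 lower, of which 35 and 15 are among them. Both scalings kept 28 of the higher genes, among them Cdca8, Igsf1, Foxs1, Gtsf1, Lrp11, Maob, Vgll2, Aldh1l2, Asap2, Cgas, Ddah1 and Filip1l, and 7 of the lower genes: Mylk4, Ciart, Cpsf6, Dhdh, Armc8, Nhlrc2 and B330016D10Rik. Neither scaling kept 8 of the higher genes (Alkbh3, C130080G10Rik, Dtx3l, Gtf2h5, Ifi27, Ptpn3, Tanc2 and Tmx4) and 9 of the lower genes, Crebl2, Dcaf7 and Pwwp2a among them. Abra, Prkab2, Paxx, Mtus2 and Ttc32 were kept by quantile normalization and not under a common median. Array medians on chip 430B were 69.3 to 78.9 in the control hearts and 60.9 to 74.3 in the later ones, and scaling to a common median moved the median difference of all probe sets from -0.05 to 0.05. Without control hearts 3 and 4, those with Xist signal, 146 higher and 121 lower probe sets met the rule. A comparison with fewer control hearts can only add probe sets, and the part of the Xist signal in the rise was not tested. Of the 3 X-linked genes, Igsf1, Maob and Iqsec2, all were higher genes. Maob had 823 and 1073 in control hearts 3 and 4 and 747 and 713 in control hearts 1 and 2. Igsf1 went the other way, with 253 and 317 in control hearts 3 and 4 and 395 and 334 in control hearts 1 and 2. Iqsec2 overlapped, with 676 and 779 against 760 and 636.

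**Figure D5:**
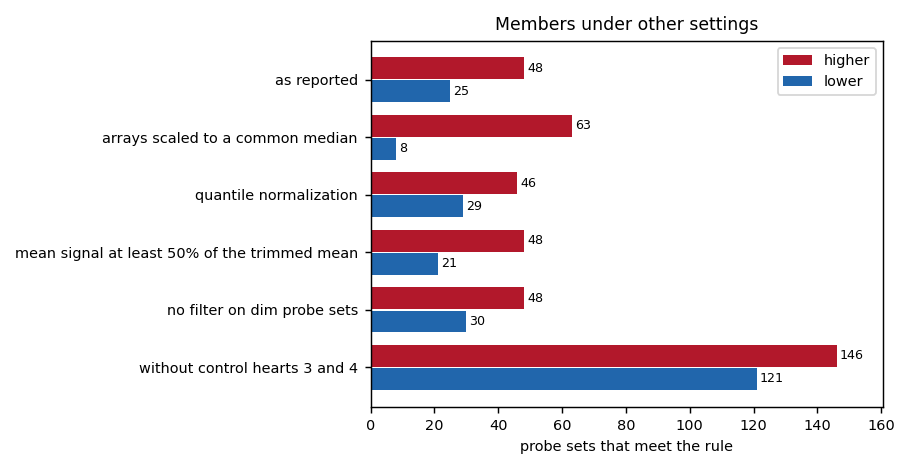
Bars give the number of probe sets that met the rule, red for higher and blue for lower, under the reported setting (48 and 25) and other settings. Scaling to a common median left 8 lower, and leaving out control hearts 3 and 4 raised the counts to 146 and 121.

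Only Cdca8 and Aldh1l2 belonged to any of the 15 pathway lists that were examined. Of the 40 other measured genes of cell cycle and DNA replication, 13 were called higher than in control hearts and 0 lower at on2w, 3 and 1 at on2w/off2d, 3 and 3 at on6w, and 2 and 1 at on6w/off2w. Their median log2 difference was 0.43, 0.16, -0.02 and 0.24 in that order. Of the 40 other measured genes of glucose and amino acid metabolism, the list of Aldh1l2, 2 were higher and 4 lower at on2w, 3 and 0 at on2w/off2d, 10 and 2 at on6w, and 3 and 0 at on6w/off2w, with medians of -0.22, 0.14, -0.02 and 0.16. Over all probe sets tested on both chips 2.66% were called higher and 2.35% lower at on2w, 1.77% and 1.46% at on2w/off2d, 5.65% and 7.54% at on6w, and 1.17% and 1.4% at on6w/off2w, with medians of -0.03, -0.03, -0.08 and -0.03. These comparisons share the control hearts that chose the 73 genes.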

How the data were processed

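The 18 hearts gave 36 arrays, 1 Affymetrix chip 430A and 1 chip 430B for each. Per the submitters' processing notes the deposited intensity values are MAS5 signals on a linear scale, and the sources used here name no version. Trimmed means (2%) differed between the arrays of a chip by no more than 0.006% from their average (500.2 on chip 430A, 122.5 on chip 430B), which means that arrays were brought to a shared level before deposit, and signals were used unchanged. Detection calls were not used here, the sources used here hold no scan dates, and precision is limited by the number of arrays.

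Probe sets whose mean signal reached 20% of the trimmed mean were kept, 17519 on chip 430B. The model, limma 3.58.1 in R 4.3.3, took log2(signal + 10% of the trimmed mean) on all 18 arrays with a mean for each group, and eBayes was run with a trend. Adjustment of p-values followed Benjamini and Hochberg over the chip, and the model was tested on simulated data with known changes. Gene symbols are those of the platform's annotation, and promoters from RefSeq (GRCm38.p6). For the pathway lists a gene was read from its brightest probe set, on chip 430A where possible.

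The genes and lists were chosen with earlier results of these data known. The genes named were, in each direction, the 12 with the largest mean difference, up to 3 called per contrast and direction, those on a pathway list or with a further probe set, and the 3 nearest each side of the threshold, with Akt1 and Xist as checks of the labels. The remaining genes are given so that all 73 are accounted for. Alternatives were other offsets, scalings and filters, the Actb ratio as a covariate, a replicate block, each heart left out in turn, and both control hearts with Xist signal left out.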

Additional observations from a re-analysis of the deposited data

Results flagged for a closer look

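In 7 of the 219 groups of 4 hearts examined for the 73 genes a single heart stood apart by Dixon's ratio, the gap to the nearest other heart over the range of the group, at its 95% critical value. Chance marks about 1 group in 20 in such a search, and 7 is fewer than that share of 219. Cdca8 had 222.8 in heart 3 of on2w/off2d, against 146 to 149 in the others (ratio 0.957). Gm2629 had 57.1 in heart 3 of on2w, against 4.70 to 8.57 (0.926). Pwwp2a had 238 in heart 1 of on2w, against 186 to 191 (0.903), and that heart was its highest among the later hearts. Slc16a10 had 18.4 in heart 1 of on2w/off2d, against 13.9 to 14.6 (0.843), all under the limit of 24.5. Among the control hearts C130080G10Rik was low in heart 4, at 205 against 324 to 341 (0.872). In control heart 3 Gm2115 had 107.5 against 96.8 to 98.4 (0.847) and Zkscan7 had 125 against 99.3 to 103 (0.842), and control heart 3 is 1 of the 2 with Xist signal.

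The responses of Vgll2 to the 2 repressions differed. Their interaction was -2.00 on the log2 scale by limma over all probe sets of the chip (adjusted p = 0.0283). The call was kept in 18 of 27 alternatives, with an adjusted p of up to 0.0993. Induction time, repression time and age all differ between the 2 responses and cannot be told apart. Vgll2 was lower in 3 of 3 hearts at on6w/off2w than in any on6w heart, while the ranges of on2w/off2d and on2w overlapped.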

How the results depend on the processing

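Of 1967 alternative values for the differences of the 73 genes from control, 1959 moved by less than 1 SD and 8 by more. With a heart left out the rule itself fixes their direction, so it is no sign of stability. For the 16 called contrasts of single genes, 379 of 432 alternative values stayed called and 53 did not. The count of higher genes was 146 and that of lower genes 121 without control hearts 3 and 4. With fewer control hearts the rule can only add probe sets, and the part of the Xist signal in this rise was not tested. Lower genes fell to 8 with arrays scaled to a common median. The count called after 2 days of repression was 6 with quantile normalization, and that after 2 weeks was 11 when a mean signal of 50% of the trimmed mean was required. The median difference was 0.80 for the higher genes with a common median. For the lower genes it was -0.71 with an offset of 20%, -0.70 with a common median and -0.70 with the filter at 50%. Unless stated here, the cause was not tested.

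With single hearts left out the counts ran from 50 to 122 for higher genes and from 25 to 60 for lower genes, both highest without control heart 1. Called genes ran from 2 to 5 after 2 days of repression, from 2 to 6 between on6w and on2w, from 5 to 9 after 2 weeks of repression, from 0 to 0 between the repressed groups, and from 0 to 1 for the interaction. The medians ran from 0.63 to 0.72 and from -0.83 to -0.76. Same-numbered hearts correlated in their deviations from the group means by -0.084 to 0.109, with 2 of 33 pairs over 0.1. Hearts of different numbers correlated by -0.114 to 0.147, with 3 of 96 pairs over 0.1. Correlations over all probe sets tested cannot decide whether same-numbered hearts shared a batch. With the replicate block the counts called were 3, 5, 7 and 0, and 0 for the interaction. Over all probe sets of the chip the interaction called 2 with the block and 16 without it. Precision is limited by 3 or 4 hearts per group, by the single age of each group, and for Slc16a10, Armc8, 1810010H24Rik and Gm2629 by dim signals.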
